A study of Bos taurus with 27 samples.

Results

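The transporter genes described here encode membrane carriers of sugars, monocarboxylates, organic anions and cations, vitamins, choline, fatty acids, nucleosides and nucleotide sugars. They were chosen by gene name, as the SLC2A, SLC5A, SLC10A, SLC13A, SLC16A, SLC17A, SLC19A, SLC22A, SLC23A, SLC27A, SLC28A, SLC29A, SLC35, SLC37A, SLC44A and SLCO families, with SLC16A1 and SLC16A3 left out. That gave 127 genes, carried by 128 probes, out of 14952 gene names and 15008 probes on a customized bovine microarray that also held 197 other SLC genes. The gene with 2 probes was SLC10A5, and the probe with the higher mean signal stood for it.

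Rumen epithelium (RE), the stratified lining of the forestomach of cattle, was biopsied from 9 Japanese Black beef cattle, castrated males fitted with a rumen fistula. Each animal was sampled at the early, middle and late fattening stage, at 14, 21 and 29 months of age, which gave 9 arrays per stage and 27 in all. All animals ate concentrate with rice straw throughout, and concentrate made up a larger part of the ration at the middle and late stages than at the early stage. Every animal passed through the stages in the same order and no group of constant age or diet was measured, so age, body weight, diet and season cannot be told apart. Middle against early is called the first period, late against middle the second period, and late against early the total period. Biopsied tissue holds several cell types, and in bulk RNA fewer cells of a type and less RNA per cell cannot be told apart. The extraction text in the labels names blood neutrophils and liver rather than rumen, so the tissue was checked against marker genes. Of 17 markers of stratified epithelium on the array, 14 stood well above background on all 27 arrays and KRT4 on none. Of 15 liver markers 1 was so on all arrays and 4 (ALB, APOC3, FGA and FGG) on none, and of 9 neutrophil markers 2 were so on all arrays and 2 (ELANE and CAMP) on none.

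Solute carriers move small molecules across the cell surface or organelle membranes. Members of SLC2A let hexoses pass down their gradient, whereas SLC5A and SLC28A members use the sodium gradient to pull sugars, vitamins, carboxylates or nucleosides into the cell. SLC16A members carry lactate, ketone bodies and related acids together with protons, and SLC22A and SLCO members carry organic ions, carnitine and prostaglandins. SLC35 members sit mostly in the Golgi apparatus and endoplasmic reticulum and bring in the nucleotide sugars that glycosylation uses. The RE takes up the acids of microbial fermentation and is exposed to sugars, amines and nucleosides released by feed and microbes.

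Each gene was read by 1 probe of 60 bases, so the identity of the probe limits what its signal can report. Probes of some members with large changes are printed here, each with a reading frame open over nearly its whole length. Probes given by position only can have such a frame too. All letters are in lower case because the whole probe is the measured unit. Positions are those of the array annotation on the UMD 3.1 assembly, and the sequences are as the deposited array files give them.
SLC28A3: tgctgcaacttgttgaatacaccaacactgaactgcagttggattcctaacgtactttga
SLC16A8: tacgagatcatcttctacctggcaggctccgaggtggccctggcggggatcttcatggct
SLC22A18: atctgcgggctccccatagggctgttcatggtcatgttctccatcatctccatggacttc
SLC29A4: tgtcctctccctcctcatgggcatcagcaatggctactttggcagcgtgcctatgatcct
SLC5A9: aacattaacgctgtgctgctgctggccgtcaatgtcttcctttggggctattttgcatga
The SLC28A3 probe lies at chr8:78872434-78872493 on the minus strand, the SLC16A8 probe at chr5:110366202-110366261 (minus), the SLC29A4 probe at chr25:39516880-39516939 (minus) and the SLC5A9 probe at chr3:98567049-98567108 (minus). The SLC22A18 probe, at chr29:49339432-49340410 (minus), spans 979 bases of the genome with its 60 bases, so it lies in exonic sequence on both sides of an intron. The SLC22A8 probe at chr29:41999719-41999777 (minus), the SLC35F5 probe at chr2:65679819-65679878 (minus) and the SLC35A5 probe at chr1:57806799-57806858 (plus) are given by position only. The files do not say which probes lie in coding or untranslated sequence.

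Levels are log2 processed signal relative to the median of the same array, a scale on which levels of different probes are not comparable with each other. The median signal of an array was 35.2 to 48.6 intensity units early, 8.22 to 28.7 in the middle and 32.2 to 47.0 late, so the middle-stage arrays were the dimmest. Early animals 1 to 8 lay on slide 1, early animal 9 with middle animals 1 to 7 on slide 2, middle animals 8 and 9 on slide 3, late animals 1 to 8 on slide 4 and late animal 9 on slide 5. For the second and total periods no slide held both stages, so slide and stage cannot be told apart there. On this scale the median change over all 15008 probes was 0.32 for the first, −0.27 for the second and 0.03 for the total period. Under quantile normalization these medians were 0.09, −0.04 and 0.03. Changes are given on the first scale, for the largest also less the median of all probes, and with their range under the 4 other scalings (75th percentile, quantile, cyclic loess and normexp). Normexp was run with an offset of 50 intensity units, above the median signal of every array. Such an offset draws the changes of dim probes toward 0, so smaller normexp values may come from this setting. Over all probes 1.91% of the first-period 2-fold calls were rises under normexp, against 75.9% on the first scale.

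Of the 127 transporters, 51 were well above background on all 27 arrays, 25 on no array and 51 on some. All 9 early arrays measured 72 of them above background, all 9 middle arrays 51 and all 9 late arrays 70. A gene is called when its limma adjusted *P* is below 0.05 and its change at least 2-fold. In the first period 38 transporters were called higher and 6 lower, beside 23.9% and 7.58% of all probes. In the second period 10 were called higher, beside 9.99% of all probes, and 44 lower, beside 29%. In the total period 3 were called higher and 4 lower, beside 1.32% and 2.79%. By adjusted *P* alone, with no fold asked for, 65 were higher and 17 lower in the first period (45.3% and 21.3% of all probes), 31 and 65 in the second (27% and 44.6%), and 16 and 10 in the total period (11.2% and 8.93%). The transporters were thus called at rates of the same order as all probes.

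Most of the first-period rises were of transporters that were not measured above background. Of the 38, only 4 were well above background on all 18 arrays compared, SLC16A8, SLC10A5 and SLC5A12 among them, and 24 were so on none. SLC10A5 rests on the choice of its probe, and the SLC5A12 probe is like those of other genes, as described below. The 25 transporters above background on no array had a median change of 1.33 in the first period and −1.40 in the second, against 1.33 and −1.39 for all 2042 such probes of the array. The 51 transporters above background on all 27 arrays had a median of 0.06 in the first period and 0.25 in the second, against 0.08 and 0.10 for all 6797 such probes. Of those 51, 4 were called higher and 3 lower in the first period, 6 higher and 5 lower in the second, and 2 higher and 2 lower in the total period. Of the 6797 such probes, 486 and 481, 757 and 687, and 61 and 86 were called in the same order. No fold change is given for a transporter that was above background on no array of both stages.

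**Figure D1:**
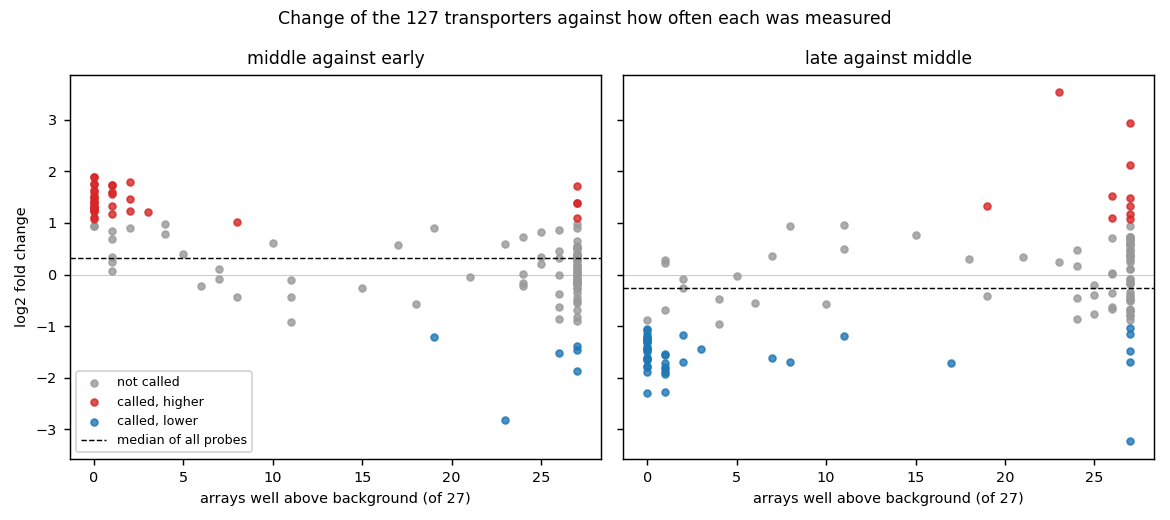
Log2 fold change of each of the 127 transporters in the first period (left) and the second period (right) against the number of the 27 arrays on which its probe was well above background. Red points were called higher, blue points lower and grey points were not called, and the dashed line is the median of all probes. Transporters at 0 arrays lie in a band around 1.33 on the left and around −1.40 on the right, while those at 27 arrays spread to both sides of 0.

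A stricter reading kept transporters that were above background on all 18 arrays of a comparison and had an adjusted *P* below 0.05 in the same direction under all 5 scalings. In the first period 6 of 51 such transporters rose and 10 fell, beside 11% and 24.3% of 6811 probes. In the second period 18 of 51 rose and 7 fell, beside 29.2% and 11.3% of 6797 probes. In the total period 5 of 69 rose and 4 fell, beside 4.75% and 2.75% of 9621 probes. The 6 first-period rises include SLC10A5, which rests on the choice of its probe as described below. The first and second periods share the middle-stage arrays, so a change at those arrays enters both with opposite sign.

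Among the nucleoside carriers, SLC28A3 was lower at the middle stage and SLC29A4 higher at the late stage. SLC28A3 encodes a concentrative carrier that couples purine and pyrimidine nucleosides to sodium. Its log2 levels were 0.53 to 2.73 early (median 2.09), −2.93 to 0.09 in the middle (median −0.66) and 1.97 to 3.23 late (median 2.60). All 9 middle-stage values lay below every early and late value. Its probe was above background on all early and late arrays and on 5 of 9 middle arrays. The log2 change was −2.81 for the first period (SE 0.33, 7.02-fold lower, lower in 9 of 9 cattle, limma adjusted *P* = 1.43e-06) and 3.53 for the second (SE 0.33, 11.6-fold higher, limma adjusted *P* = 3.62e-08). Less the median of all probes the changes were −3.14 and 3.80. The other scalings gave −3.06 to −0.97 and 1.63 to 3.69, the smallest sizes being those of normexp. Late against early it differed by 0.72 (SE 0.33, limma adjusted *P* = 0.13), which did not pass.

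SLC29A4 encodes an equilibrative carrier that takes adenosine and monoamines. Its levels were 1.61 to 3.101 on early arrays (median 2.43), 1.81 to 2.59 on middle arrays (median 2.31) and 3.29 to 4.00 on late arrays (median 3.84). Every late value was above every earlier value, whereas early and middle values overlapped. It rose by 1.48 in the second period (SE 0.15, 2.79-fold, limma adjusted *P* = 1.27e-07) and by 1.33 in the total period (SE 0.15, 2.51-fold, limma adjusted *P* = 5.17e-06), in 9 of 9 cattle each time. The other scalings gave 1.27 to 1.67 and 1.20 to 1.28. In the first period its change was −0.15 (SE 0.15, limma adjusted *P* = 0.396).

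SLC29A2, a general equilibrative nucleoside carrier, also rose over the total period, by 0.58 (SE 0.13, limma adjusted *P* = 0.00458) and in 9 of 9 cattle. It was named after its values were seen, as were SLC2A6, SLC5A2, SLC16A5, SLC44A2, SLC44A3, SLC44A4, SLC35D2, SLC35E4, CPT1A, UGDH and UAP1 below. SLC29A1, the most widely used carrier of that kind, changed by −0.23, 0.16 and −0.07 in the 3 periods, and none of these passed. SLC28A2, a purine-selective concentrative carrier, was above background on no array. Among 15 enzymes of nucleoside salvage, a list of genes that act on what these carriers bring in, 4 fell in the first period and 1, the uridine-cytidine kinase UCK2, rose by 1.39 (limma adjusted *P* = 0.00015). Over all probes 7.58% were called lower and 23.9% higher in the first period and 29% and 9.99% in the second, which are the shares beside this list and the other enzyme lists named here. The largest fall was that of HPRT1, which recycles hypoxanthine and guanine, at −2.04 (limma adjusted *P* = 2.7e-07, above background on 7 of 9 middle arrays). In the second period 5 rose, led by the cytidine deaminase CDA at 1.82 (limma adjusted *P* = 7.81e-08), and UCK2 changed by −0.75 (limma adjusted *P* = 0.0144), a call lost when slide was a random block (limma adjusted *P* = 0.294). HPRT1 and CDA passed under all 5 scalings, and in the first period so did UCK2. With slide as a fixed block UCK2 was −0.43, a value that needs the 1 early array of slide 2.

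**Figure D2:**
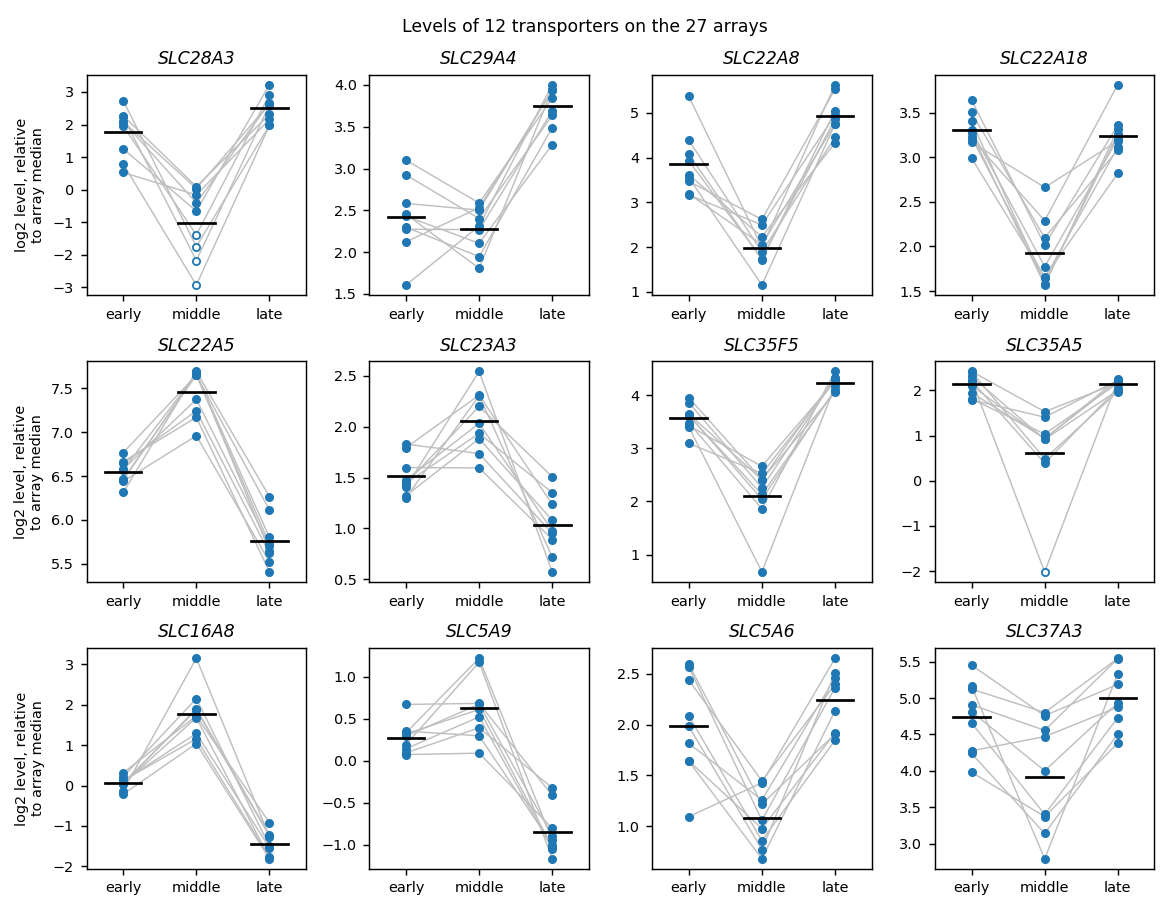
Log2 level relative to the array median of 12 transporters by stage. Each point is 1 array, grey lines join the 3 arrays of an animal, black bars are stage means, and open points were not well above background. SLC28A3, SLC22A8, SLC22A18, SLC35F5 and SLC35A5 have their lowest values at the middle stage. SLC16A8 and the SLC22A5 probe have their highest there, and SLC29A4 its highest at the late stage.

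The organic ion carriers were the largest group, with 46 genes, of which 13 were above background on all 27 arrays and 13 on none. Among those measured, SLC22A8 and SLC22A18 were lower at the middle stage. SLC22A8 encodes an organic anion carrier best known from the kidney. Its levels were 3.17 to 5.37 early (median 3.61), 1.15 to 2.62 in the middle (median 2.00) and 4.33 to 5.64 late (median 4.87). The middle-stage values lay below all others, and early and late values overlapped. It fell by 1.87 in the first period (SE 0.23, 3.67-fold, limma adjusted *P* = 2.2e-06) and rose by 2.94 in the second (SE 0.23, 7.67-fold, limma adjusted *P* = 4.59e-09), in 9 of 9 cattle each time. The other scalings gave −1.84 to −1.72 and 2.73 to 3.02, and less the median of all probes the changes were −2.20 and 3.21. Late against early it was 1.06 higher (SE 0.23, 2.09-fold, limma adjusted *P* = 0.00267, higher in 9 of 9 cattle), and the call was lost when slide entered as a random block (0.96, limma adjusted *P* = 0.285).

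SLC22A18, an efflux-type carrier of organic cations, had levels of 2.99 to 3.64 on early arrays (median 3.27), 1.57 to 2.66 on middle arrays (median 1.77) and 2.82 to 3.81 on late arrays (median 3.21). Its middle-stage values were below all others, and the early and late ranges overlapped. It fell by 1.38 in the first period (SE 0.13, 2.60-fold, limma adjusted *P* = 1.45e-07) and rose by 1.32 in the second (SE 0.13, 2.49-fold, limma adjusted *P* = 8.53e-08), with −1.33 to −1.25 and 1.11 to 1.37 under the other scalings.

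In the opposite direction, the SLC22A5 probe was higher at the middle stage. Its gene encodes the sodium-coupled carnitine carrier. The probe carries this gene's name in the array annotation. By eye its sequence resembles an interspersed repeat, a sequence found at many places in a genome. Whether it also occurs elsewhere in the genome was not tested, so the values are those of the probe and may not be those of the gene. Its levels were 6.31 to 6.77 on early arrays (median 6.57), 6.96 to 7.69 on middle arrays (median 7.65) and 5.41 to 6.26 on late arrays (median 5.70). The 3 ranges did not overlap. It rose by 0.91 in the first period (SE 0.11, 1.88-fold, limma adjusted *P* = 2.84e-06) and fell by 1.70 in the second (SE 0.11, 3.24-fold, limma adjusted *P* = 6.74e-10). In the first period the rise was 0.28 under normexp, which did not pass. The change over the total period was −0.79 (SE 0.11, limma adjusted *P* = 7.01e-05, lower in 9 of 9 cattle), and −0.64 when slide was a random block (limma adjusted *P* = 0.119). The second-period change was −1.88 to −0.86 under the other scalings. The related carrier of ergothioneine, SLC22A4, rose by 0.73 (SE 0.15, limma adjusted *P* = 0.00037) and then fell by 0.85 (SE 0.15, limma adjusted *P* = 5.82e-05), being above background on 6 of 9 middle arrays.

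Carnitine serves the shuttle of acyl groups into mitochondria, for which 8 genes were listed. In the first period 2 of them were called higher and 1 lower, and in the second 1 higher and 1 lower. The first-period fall was that of CRAT, which transfers short acyl groups to carnitine, at −1.52 (limma adjusted *P* = 1.39e-05), and it rose by 1.51 in the second period (limma adjusted *P* = 8.64e-06). CPT1A, which loads long acyl groups onto carnitine, was 1 of those higher in the first period (1.07, limma adjusted *P* = 0.00093, and 0.43 under normexp without passing), and BBOX1, an enzyme of carnitine synthesis, was above background on 1 of 27 arrays.

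The prostaglandin carrier SLCO2A1 was lower at the late stage. It had levels of 1.37 to 2.32 early (median 1.90), 1.32 to 2.26 in the middle (median 1.77) and 0.44 to 1.57 late (median 1.03). The early and late ranges overlapped, while each of the 9 cattle was lower late than early. The total-period change was −0.94 (SE 0.15, 1.91-fold, limma adjusted *P* = 0.000194), −1.06 to −0.54 under the other scalings, and −0.81 when slide was a random block (limma adjusted *P* = 0.153). SLC13A4, a sulfate carrier, was above background on all 9 early arrays and on 1 of 9 arrays at each later stage. Its early levels were −2.17 to −0.61 (median −1.86) and its late levels −4.00 to −2.52 (median −3.39), without overlap. With the late stage at background on 8 of 9 arrays, no size is given for this difference.

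SLC10A5, an uncharacterized member of the bile acid carrier family, gave different answers from its 2 probes. The probe that stood for the gene lies at chr14:83269743-83269802 (plus strand) and the other at chr14:83267139-83267198 (plus), and both are printed because the choice between them sets the result.
SLC10A5, probe used: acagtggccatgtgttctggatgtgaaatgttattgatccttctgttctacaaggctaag
SLC10A5, other probe: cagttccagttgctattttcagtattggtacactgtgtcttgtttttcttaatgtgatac
The probe used had levels of 1.96 to 3.69 on early arrays (median 2.65), 3.02 to 4.55 on middle arrays (median 4.24) and 2.81 to 3.92 on late arrays (median 3.39). Its fitted first-period change was 1.38, higher in 9 of 9 cattle. The other probe was also above background on all 27 arrays and changed by −0.06 (SE 0.19, higher in 4 of 9 cattle, limma adjusted *P* = 0.793). The probe used had the higher mean signal over all arrays only through the middle stage, with mean levels of 2.68, 4.06 and 3.35 against 3.22, 3.16 and 3.33 for the other probe. The choice of probe therefore favoured a first-period rise, so the change is given as a description with no test, although the counts above include it.

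Among the sugar carriers and their relatives, 26 genes in SLC2A, SLC5A and SLC37A, 9 were above background on all 27 arrays and 5 on none. SLC5A9, a sodium-coupled carrier of mannose and fructose, was lower at the late stage. Its levels were 0.07 to 0.67 early (median 0.29), 0.09 to 1.22 in the middle (median 0.61) and −1.17 to −0.32 late (median −0.95). All late values lay below all earlier ones. It fell by 1.48 in the second period (SE 0.14, 2.78-fold, limma adjusted *P* = 7.15e-08) and by 1.12 in the total period (SE 0.14, 2.17-fold, limma adjusted *P* = 2.01e-05), in 9 of 9 cattle each time. The rule that named SLC5A9 asked for the same direction in all cattle. The other scalings gave −1.66 to −0.44 and −1.24 to −0.40, so the direction was kept and the size was smallest under normexp.

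SLC5A6, the carrier of biotin and pantothenate, had levels of 1.09 to 2.59 on early arrays (median 1.98), 0.68 to 1.45 on middle arrays (median 1.06) and 1.85 to 2.65 on late arrays (median 2.36). The middle and late ranges did not overlap. It fell by 0.91 in the first period (SE 0.17, 1.88-fold, lower in 8 of 9 cattle, limma adjusted *P* = 0.000194) and rose by 1.17 in the second (SE 0.17, 2.25-fold, higher in 9 of 9 cattle, limma adjusted *P* = 1.09e-05). The rule that named SLC5A6 asked for that rise in all cattle. SLC37A3, a member of the sugar-phosphate carrier family, had median levels of 4.81, 4.00 and 4.94 with overlapping ranges. It fell by 0.81 (SE 0.19, limma adjusted *P* = 0.00107) and rose by 1.08 (SE 0.19, 2.12-fold, limma adjusted *P* = 5.56e-05), with −1.18 to −0.75 and 0.87 to 1.66 under the other scalings.

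The basal glucose carrier SLC2A1 changed less. Its levels were 3.99 to 4.36 early (median 4.27), 2.80 to 4.37 in the middle (median 3.74) and 4.09 to 4.39 late (median 4.26), and the ranges overlapped. It fell by 0.55 (SE 0.16, 1.46-fold, lower in 7 of 9 cattle, limma adjusted *P* = 0.00565) and rose by 0.56 (SE 0.16, limma adjusted *P* = 0.00404). Neither change passed when slide was a random block (−0.40, limma adjusted *P* = 0.197, and 0.48, limma adjusted *P* = 0.166). SLC2A6, a hexose carrier of lysosomes, rose by 0.98 in the first period (SE 0.16, 1.98-fold, limma adjusted *P* = 3.32e-05), just short of 2-fold.

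The intestinal sodium-glucose carrier SLC5A1 changed by −0.02 from early to middle (SE 0.29, limma adjusted *P* = 0.96) and by −0.68 from middle to late (SE 0.29, limma adjusted *P* = 0.0408), a call that was lost when any of animals 1, 2, 4, 5, 6 or 8 was left out (−0.67 to −0.55). SLC5A2, its renal relative, rose by 0.86 from early to middle (SE 0.15, limma adjusted *P* = 6.61e-05). Neither the SLC5A1 nor the SLC5A2 probe was well above background on all 9 middle arrays. The glucose and fructose carriers SLC2A3 and SLC2A5 and the glucose-6-phosphate carrier SLC37A4 were above background on no array, and SLC2A2 on 1. SLC5A8, a sodium-coupled carrier of short-chain fatty acids and lactate, was above background on 4 early, 1 middle and 1 late arrays, too few for a comparison. Of 6 genes for glucose phosphorylation and release, 1 was called higher and 0 lower in the first period, and 1 higher and 2 lower in the second. The median change of the 6 was 0.40 and −0.56. G6PC was above background on no array. Against these medians PGM1, which interconverts glucose phosphates, fell by 0.78 (limma adjusted *P* = 0.000515) and rose by 1.30 (limma adjusted *P* = 1.92e-06), under all 5 scalings. When slide was a random block the first change was −0.60 and did not pass (limma adjusted *P* = 0.0523).

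SLC5A12 encodes a sodium-coupled lactate carrier, and its probe was like those of other genes. Its levels were 7.98 to 8.46 on early arrays (median 8.26), 8.69 to 10.46 on middle arrays (median 9.25) and 7.98 to 8.37 on late arrays (median 8.12). The middle-stage values were above all others. The changes were 1.096 in the first period (SE 0.15, 2.14-fold, limma adjusted *P* = 7.80e-06) and −1.16 in the second (SE 0.15, 2.23-fold, limma adjusted *P* = 2.06e-06), and normexp gave 0.68 and −0.49 without passing. The probe lies at chr15:58144748-58144807 (minus strand). Each of the 127 transporter probes was set against all other probes of the array on both strands, asking for 80% identity over an ungapped overlap of at least 30 bases. SLC5A12 was the 1 transporter with a match to a probe of another gene, and it had 3. The search covered the probes of the array and not the genome, so it does not settle what the other 126 probes bind. Bases 11 to 40 of its probe are printed, with the 28 of 30 bases that the CWC25 probe shares in capitals.
SLC5A12, bases 11 to 40: ACTTTgGCCACCTCATGCgAAGAGTTGACT
The CWC25 probe shared 45 bases in all and the YARS2 probe 29 on the same strand, and the LOC510193 probe 43 on the opposite strand. CWC25 changed by 1.00 from early to middle (SE 0.16, limma adjusted *P* = 2.59e-05) and −1.55 from middle to late (limma adjusted *P* = 9.46e-08). YARS2 changed by 1.32 (limma adjusted *P* = 1.60e-05) and −2.93 (limma adjusted *P* = 6.17e-10). LOC510193 changed by 0.30 (limma adjusted *P* = 0.0249) and −1.18 (limma adjusted *P* = 4.32e-08). These probes had the signs of SLC5A12 in the first and second periods. Late against early they fell, by 0.55 for CWC25 (limma adjusted *P* = 0.017), 1.61 for YARS2 (limma adjusted *P* = 9.74e-06) and 0.89 for LOC510193 (limma adjusted *P* = 1.53e-05), whereas SLC5A12 changed by −0.06 (limma adjusted *P* = 0.83). Whether RNA of other genes bound to the SLC5A12 probe was not tested. The values given for SLC5A12 are those of the probe and may not be those of the gene.

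**Figure D3:**
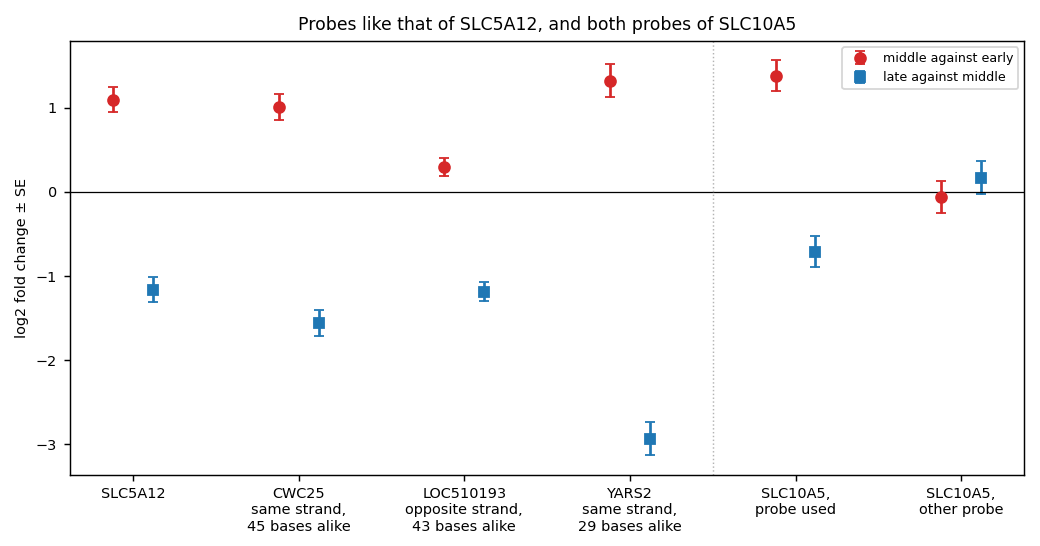
Log2 fold change with its standard error in the first period (red) and the second period (blue) for the SLC5A12 probe and the 3 array probes of other genes that match it, and for both SLC10A5 probes, right of the dotted line. CWC25 and YARS2 change by 1.00 and 1.32 in the first period beside 1.096 for SLC5A12, and the second SLC10A5 probe stays near 0 at −0.06.

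Of the monocarboxylate carriers, 10 genes without the left-out SLC16A1 and SLC16A3, 3 were above background on all 27 arrays and 3 on none. SLC16A8 had the largest second-period fall among the 51 transporters above background on every array. It encodes a proton-coupled lactate carrier known from the retinal pigment epithelium. Its levels were −0.22 to 0.31 early (median 0.06), 1.04 to 3.15 in the middle (median 1.72) and −1.81 to −0.92 late (median −1.50). The 3 ranges did not overlap. It rose by 1.71 in the first period (SE 0.17, 3.27-fold, limma adjusted *P* = 3.02e-07), fell by 3.23 in the second (SE 0.17, 9.35-fold, limma adjusted *P* = 4.19e-11) and was lower late than early, with a change of −1.52 (SE 0.17, 2.86-fold, limma adjusted *P* = 5.59e-06). Each of these held in 9 of 9 cattle, which the rule that named SLC16A8 asked for. The other scalings gave 0.63 to 1.78, −3.41 to −1.11 and −1.64 to −0.47, the smallest sizes again under normexp.

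SLC16A5 went the other way, with a fall of 0.52 (SE 0.13, limma adjusted *P* = 0.00195) and a rise of 0.73 (SE 0.13, limma adjusted *P* = 7.08e-05). Lactate carriers of this family need a chaperone to reach the cell surface. The chaperone BSG fell by 1.17 in the first period (limma adjusted *P* = 2.78e-05) and rose by 1.27 in the second (limma adjusted *P* = 7.21e-06), under all 5 scalings and above background on all 27 arrays. The other chaperone, EMB, was above background on 6 early, 1 middle and 1 late arrays, and its first-period change of −0.48 did not pass (limma adjusted *P* = 0.203).

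The 23 SLC35 genes, grouped by name with the nucleotide sugar carriers although some have no settled substrate, were the best measured large group. Of the 23, 14 were above background on all 27 arrays and 1 on none. Their median change was −0.07 in the first period and 0.35 in the second, beside 0.32 and −0.27 for all probes and 0.08 and 0.10 for the 6797 above background on all 27 arrays. SLC35F5, a member with no settled substrate, had levels of 3.09 to 3.95 on early arrays (median 3.62), 0.67 to 2.66 on middle arrays (median 2.26) and 4.05 to 4.45 on late arrays (median 4.27). The 3 ranges did not overlap. It fell by 1.46 in the first period (SE 0.17, 2.75-fold, limma adjusted *P* = 1.81e-06) and rose by 2.12 in the second (SE 0.17, 4.35-fold, limma adjusted *P* = 8.21e-09), with −1.43 to −1.34 and 1.91 to 2.08 under the other scalings. Late against early it rose by 0.66 (SE 0.17, 1.58-fold, limma adjusted *P* = 0.0114), and the value was 0.73 when slide was a random block (limma adjusted *P* = 0.352).

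SLC35A5, grouped with the UDP-sugar carriers, had levels of 1.79 to 2.42 early (median 2.21), −2.02 to 1.53 in the middle (median 0.93) and 1.97 to 2.25 late (median 2.17). The middle-stage values were below all others, and 1 of 9 was not above background. It fell by 1.51 (SE 0.29, 2.86-fold, limma adjusted *P* = 0.000168) and rose by 1.51 (SE 0.29, 2.86-fold, limma adjusted *P* = 0.000118), and late and early values overlapped. SLC35E1, a member with no settled substrate, was above background on 1 of 9 middle arrays. Its fitted changes of −1.20 and 1.34 became 0.06 and −0.06 under normexp, so no direction is given for it.

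SLC35C1, which brings GDP-fucose into the Golgi apparatus, fell by 0.88 in the second period (SE 0.10, 1.84-fold, limma adjusted *P* = 5.44e-07, lower in 9 of 9 cattle), from 4.10 to 5.01 (median 4.57) on middle arrays to 3.26 to 3.95 (median 3.69) on late arrays. These ranges did not overlap, and normexp gave −0.19 without passing. Its first-period change of 0.40 (limma adjusted *P* = 0.00214) was −0.02 under normexp. SLC35D2, a carrier of UDP-N-acetylglucosamine, was higher late than early by 0.67 (SE 0.12, 1.60-fold, limma adjusted *P* = 0.000622), with no overlap between 0.80 to 1.495 early and 1.66 to 1.99 late.

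Among 22 enzymes that make nucleotide sugars, 2 were called in each direction in the first period, and 4 were called higher and 2 lower in the second. GMPPB, which makes GDP-mannose, had the largest fall, −2.51 in the first period (limma adjusted *P* = 2.18e-07, above background on 7 of 9 middle arrays), and rose by 2.25 in the second (limma adjusted *P* = 2.9e-07). UGDH, which makes UDP-glucuronate, was the other fall, at −1.11 (limma adjusted *P* = 7.61e-05), and UAP1, which makes UDP-N-acetylglucosamine, rose by 1.16 in the second period (limma adjusted *P* = 8.04e-07). FUK, a fucose kinase, was above background on no array and GFPT1 on 3, so the largest fitted rise and fall of this list are not compared.

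The vitamin and choline carriers were mostly well measured, with 8 of 9 above background on all 27 arrays. SLC23A3, a relative of the ascorbate carriers, had levels of 1.30 to 1.83 on early arrays (median 1.44), 1.59 to 2.54 on middle arrays (median 2.03) and 0.57 to 1.51 on late arrays (median 0.98). Middle and late ranges did not overlap. It fell by 1.03 in the second period (SE 0.14, 2.04-fold, lower in 9 of 9 cattle, limma adjusted *P* = 4.01e-06), with −1.21 to −0.27 under the other scalings. The ascorbate carrier SLC23A1 changed by 0.28 (limma adjusted *P* = 0.0789) and −0.15 (limma adjusted *P* = 0.323), and SLC23A2 was above background on no array.

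All 3 choline-like carriers measured, SLC44A2, SLC44A3 and SLC44A4, rose in the second period without reaching 2-fold. SLC44A2 went from 5.90 to 6.57 (median 6.25) on middle arrays to 6.47 to 6.91 (median 6.77) on late arrays, a rise of 0.46 (SE 0.10, limma adjusted *P* = 0.00063). SLC44A3 rose by 0.45 (SE 0.11, limma adjusted *P* = 0.0011) and SLC44A4 by 0.64 (SE 0.15, limma adjusted *P* = 0.000695). Each was higher late than middle in 9 of 9 cattle, the middle and late ranges overlapped, and all 5 scalings passed. When slide was a random block SLC44A3 no longer did (0.43, limma adjusted *P* = 0.0582). Beside them 27% of all probes had an adjusted *P* below 0.05 upward in that period. SLC44A1 was not measured here. Of 9 genes of choline use, 2 were called lower and 3 higher in the first period, and 3 lower and 2 higher in the second. CEPT1, the last enzyme of phosphatidylcholine and phosphatidylethanolamine synthesis, fell by 1.14 (limma adjusted *P* = 1.86e-06) and rose by 1.34 in the second period (limma adjusted *P* = 1.15e-07). The extremes of the list in the first period, CHDH and PEMT, were above background on 1 and 0 of 9 middle arrays and are not compared.

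The folate carrier SLC19A1 changed by 0.38 (SE 0.13, limma adjusted *P* = 0.0152) and −0.49 (SE 0.13, limma adjusted *P* = 0.00231), and both signs turned under normexp, so no direction is given. Of 10 genes of folate and thiamine use, 1 was called lower in the first period, GGH, a hydrolase of folate polyglutamates (−1.29, limma adjusted *P* = 0.00108), which rose by 1.85 in the second (limma adjusted *P* = 2.59e-05). FPGS, which adds the glutamates, changed by 0.24 (limma adjusted *P* = 0.0593) and −0.41 (limma adjusted *P* = 0.00248), the last of which was 0.0023 under normexp. Among 6 fatty acid carriers, 2 were above background on all 27 arrays. SLC27A4, which couples uptake of long fatty acids to their activation, changed by 0.31 (SE 0.14, limma adjusted *P* = 0.056) and −0.08 (SE 0.14, limma adjusted *P* = 0.593), and its second-period change passed in the other direction under normexp (0.64, limma adjusted *P* = 0.00515).

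**Figure D4:**
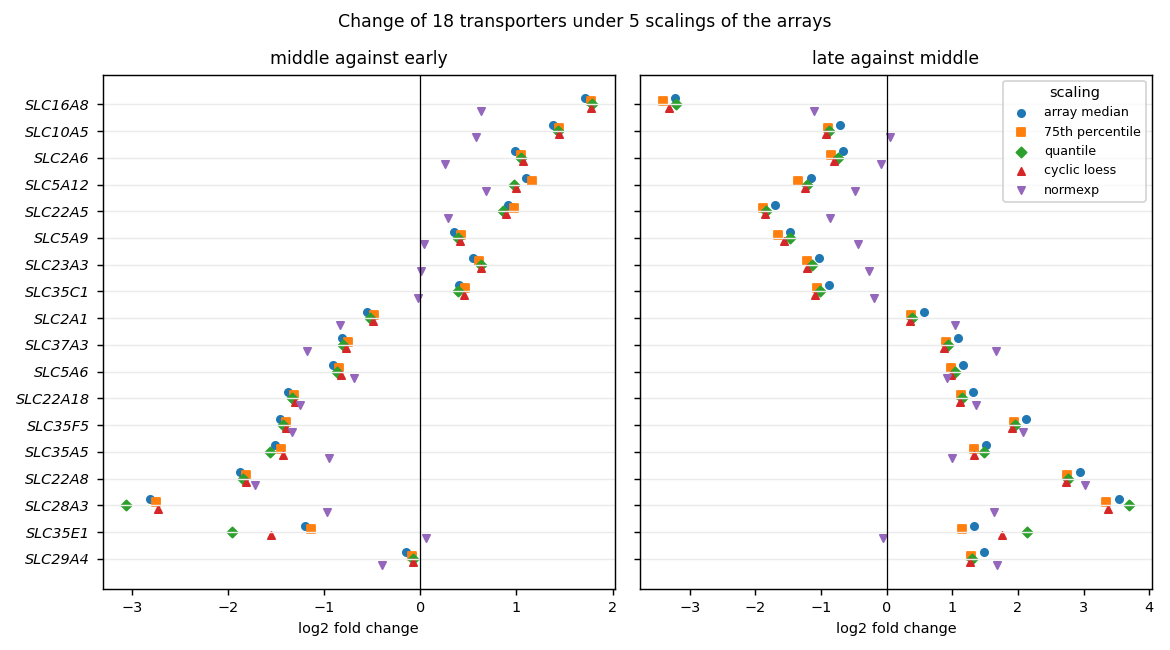
Log2 fold change of 18 transporters in the first period (left) and the second period (right) under 5 scalings of the arrays, 1 marker per scaling. Most markers of a gene lie close together except those of normexp. Those are nearer 0 for SLC16A8 (0.63 and −1.11) and SLC28A3 (−0.97 and 1.63), and farther from 0 for SLC2A1 (−0.83 and 1.04) and SLC37A3 (−1.18 and 1.66). They cross 0 for SLC35E1 in both periods, for SLC35C1 in the first (−0.021) and for SLC10A5 in the second (0.0445).

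Between the early and late stages, whose arrays were of like brightness, 9 of 69 transporters above background on all 18 arrays differed under all 5 scalings. SLC29A4, SLC29A2, SLC22A8, SLC35D2 and SLC35F5 rose, and SLC16A8, SLC5A9, SLCO2A1 and SLC35E4 fell. SLC35E4, a member with no settled substrate, changed by −0.67 (SE 0.18, limma adjusted *P* = 0.013, lower in 9 of 9 cattle). When slide was a random block, 3 of these passed, namely SLC29A4 (1.22, limma adjusted *P* = 0.0245), SLC16A8 (−1.59, limma adjusted *P* = 0.011) and SLC5A9 (−1.20, limma adjusted *P* = 0.00941), and the other 6 did not. As no slide held both stages, a pass in that fit does not separate stage from slide.

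**Figure D5:**
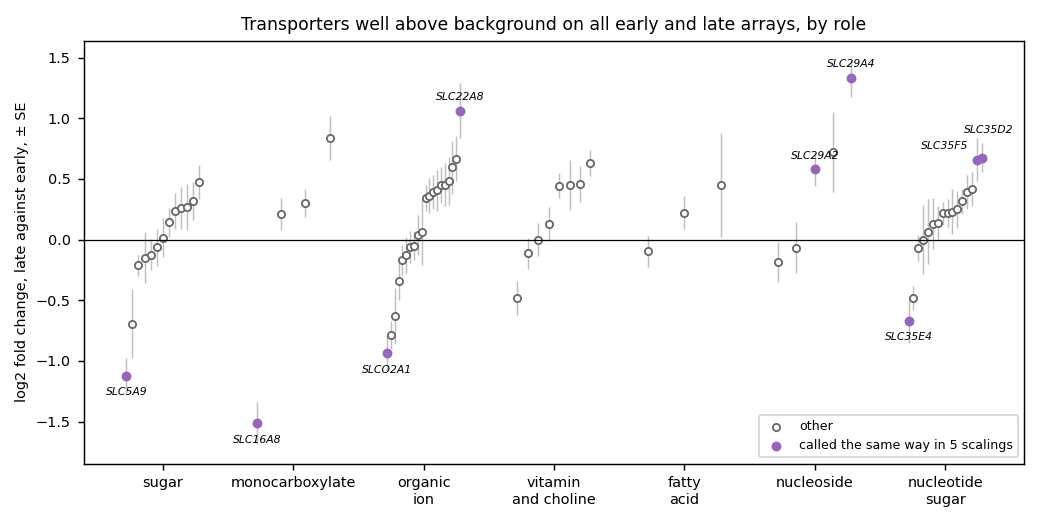
Log2 fold change with its standard error, late against early, of the 69 transporters above background on all 18 arrays of these stages. They are grouped by gene family, under the substrates after which the family is grouped here. Purple points had an adjusted *P* below 0.05 in the same direction under all 5 scalings. SLC29A4 at 1.33 is the highest and SLC16A8 at −1.52 the lowest.

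Within slide 2, which held 1 early and 7 middle arrays, the first-period changes named above that passed kept their direction except that of SLC22A4 (−0.16). The values were −3.62 for SLC28A3, −3.35 for SLC22A8, −1.37 for SLC22A18, −1.36 for SLC35F5, −1.41 for SLC35A5 and 1.69 for SLC16A8. With 1 early array none passed (limma adjusted *P* of 0.0961 for SLC22A8 and 0.195 for SLC16A8). A fit with slide as a fixed block needs that early array as well and takes its slide term from animals 8 and 9 alone. It gave 1.02 for SLC2A1 and 0.59 for SLC37A3, opposite in sign to the values above, and −0.35 for SLC22A18 (limma adjusted *P* = 0.773).

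Some cell markers moved with the stages as well. The summed level of the 17 epithelial markers, in multiples of the array median, was 4080 to 5490 early, 1170 to 5360 in the middle and 4940 to 6020 late. That of 7 red blood cell markers was 40.3 to 70 early, 107 to 201 middle and 46.4 to 92.7 late, and 2 of the 7 were above background on all arrays. That of 9 smooth muscle markers was 118 to 404, 106 to 892 and 131 to 223. The sum of 9 neutrophil markers was 1350 to 2520, 1660 to 4460 and 1670 to 2560, and that of 10 fibroblast markers 126 to 1030, 134 to 1400 and 114 to 596. Of the 9 neutrophil markers 2 were above background on all arrays and 2 on none, so their sum is no count of neutrophils. The sums of 9 endothelial, 13 leukocyte and 15 liver markers overlapped between all stages. Their medians were 55.2, 111 and 57.3 early, 67.9, 94.5 and 63.4 in the middle, and 58.4, 95.3 and 56.5 late. Only the red blood cell sum lay outside the early and late ranges on every middle array. The part of the cell types in the changes of the transporters was not tested.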

How the data were processed

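RNA of 27 RE biopsies was labeled with cyanine 3, and each was hybridized to 1 one-color array. The intensity values deposited by the authors are processed signals on a linear scale, after subtraction of the local background by Agilent Feature Extraction (9.5 per the labels, 11.0.1.1 in the scanner output). The log2 table deposited by the authors served as an alternative only. From the intensities, log2 signal less the array median was computed, outlier spots were left missing, and spots of a probe were averaged. With limma 3.58.1 in R 4.3.3, the 3 stages and the animal as a block were fitted on 15008 probes, with Benjamini-Hochberg adjustment in each comparison. The methods' paired t-test was run as an alternative. The labels give the same 9 cattle at every stage, which pairs the arrays. Deviations from stage means correlated by 0.158 on average within an animal (−0.151 to 0.461) and by −0.0197 between animals. No 2 arrays were duplicates (highest correlation 0.9904).

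The transporters, partner lists and markers were chosen with earlier results of these data known. Named genes were those called, changed alike in all cattle and measured above background by all 9 arrays of either stage, 12 genes that a table of the study names, 15 well-known carriers, and the largest rise and fall of each partner list. The text says which were added after their values were seen. A gene that met the rule is not reported here. Gene names follow the array design. Of the 127 genes, 102 matched a current gene table, where 2 symbols differ (SLC10A6 and SLC35E2). The fit was tested on simulated data. Precision is limited by 9 arrays per stage and by signal over background.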

Additional observations from a re-analysis of the deposited data

Results flagged for a closer look

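In 13 of 133 gene and stage groups tested, 1 array stood apart from the other 8 of its stage (chance gives about 1 in 20). Animal 4 at the middle stage, whose array was the dimmest, gave 4 of the 13. Its level was 10.46 for SLC5A12 (nearest other 9.59), 0.67 for SLC35F5 (nearest 1.86), 4.37 for PGM1 (nearest 5.43) and 0.79 for CEPT1 (nearest 1.86). Animal 9 at the early stage, the one early array on slide 2, stood apart for SLC13A4 at −0.61 (nearest −1.69), SLC22A4 at −1.03 (nearest −1.65) and SLC29A2 at 1.03 (nearest 0.37). SLC5A9 was 0.67 in early animal 1 (nearest 0.35), SLC29A1 was −0.0585 in late animal 4 (nearest −0.72), and UCK2 was 2.56 in early animal 6 (nearest 1.00). SLC35E4 was 1.63 in early animal 6 (nearest 0.44), SLC5A2 was −1.57 in early animal 5 (nearest −1.03), and UGDH was 5.66 in late animal 9 (nearest 6.30). All values are log2 levels relative to the array median.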

How the results depend on the processing

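The 38 transporters called higher in the first period became 7 with quantile normalization, 4 with cyclic loess, 0 with normexp (0 at an unadjusted *P* below 0.05 in limma), 5 with dim probes left out, and 0 with slide as a fixed block or within slide 2 alone (24 and 19 unadjusted). The 6 called lower became 0 in both slide settings (6 and 11 unadjusted). The 44 called lower in the second period became 10, 9 and 1 with quantile, cyclic loess and normexp, and 8 with dim probes left out. In the total period the 3 called higher became 1 with dim probes left out or slide as a random block, and the 4 called lower became 7 with 75th percentile scaling and 0 with normexp (0 unadjusted). Less the median of all probes, the transporter median was −0.14 within slide 2 alone against 0.06, and 0.02 and 0.04 with quantile and cyclic loess in the second period against −0.20. Leaving out 1 animal gave 34 to 41, 6 to 8, 9 to 12, 39 to 45, 2 to 3 and 4 to 5 calls (first, second and total period, higher then lower). Without the pairing of arrays by replicate block the counts were 38, 6, 10, 44, 3 and 4. The methods' paired t-test gave 36, 6, 9, 43, 3 and 4 after adjustment and 38, 6, 9, 43, 3 and 4 before. Within scan day 1 with the replicate block, added after the data were seen, the first period had 32 and 8. Of 3096 gene values under alternatives, 2787 kept direction and side of the threshold, 91 differed in sign or were 0 without passing either way, 167 lost the call, 37 gained one and 14 turned with a call on either side. Among the 14, those with normexp in both periods were SLC35E1 (0.0636 and −0.0612) and SLC19A1 (−0.14 and 0.26). In the first period normexp also turned SLC13A4 (0.17), SLC35C1 (−0.021) and PEMT (0.11). In the second it turned SLC10A5 (0.0445), SLC27A4 (0.64) and FPGS (0.0023). The last 4 were SLC37A3 (0.59), SLC2A1 (1.02) and UCK2 (−0.43) with slide as a fixed block, and SLC22A4 (−0.16) within slide 2. These 4 need the 1 early array of slide 2. The causes were not tested. Dim signals limit these results: 25 transporters were above background on no array.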
